A study of Homo sapiens with 6 samples.

Results

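The genes described here are the TGF-β ligands TGFB1, TGFB2 and TGFB3, the receptors TGFBR1, TGFBR2 and TGFBR3, the signal transducers SMAD2 and SMAD3, the inhibitory SMAD7, and TGFBI, a matrix protein named for its induction by TGF-β. They were picked by name as the core of the pathway, 10 of the 60708 genes in the count table, and all 10 were among the 17401 genes that reached at least 10 reads in any sample and were tested. The study examined how the tumor suppressor VHL shapes the response of tumors to immune checkpoint blockade. RNA was sequenced from Caki-1, an established human line of clear cell renal carcinoma, in 2 groups of 3 samples. VC samples are wild-type for VHL and received the lenti-CRISPR vector alone, while VHL-KO samples carry a lentiviral sgRNA against VHL with Cas9 and come from clonal cells. Infected cells were selected with puromycin. The knockout may stand for 1 clone, so a difference of that clone and the loss of VHL cannot be told apart. Nothing in the labels says that the samples of a group were separate cultures, so p-values measure the spread between these samples, which may be technical. The samples held 31789923, 28463579 and 34881739 counted reads in VC 1, VC 2 and VC 3, and 29139722, 22805385 and 22628246 in VHL-KO 1, VHL-KO 2 and VHL-KO 3.

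TGF-β is secreted in a latent complex, held in the matrix by latent TGF-β binding proteins and released by integrins, proteases or thrombospondin. The active ligand binds TGFBR2, which phosphorylates and activates TGFBR1. TGFBR1 in turn phosphorylates SMAD2 and SMAD3, which bind SMAD4 and enter the nucleus to switch target genes. SMAD7 is induced by the signal and shuts the receptor off. In epithelial cells of the kidney the pathway is known for growth arrest, matrix deposition and epithelial-mesenchymal transition.

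The labels were first checked against VHL itself, the substrate receptor of the ubiquitin ligase that degrades HIFα. Expression is given in CPM, the reads of a gene scaled to a common library size with the TMM factors of edgeR. VHL stood at 42.6, 37.8 and 40.1 CPM in VC 1, 2 and 3 and at 34.8, 30.4 and 30.5 CPM in VHL-KO 1, 2 and 3. It was lower in every VHL-KO sample, with a log2 fold change of -0.33 (SE 0.11, edgeR adjusted p = 0.0109, n = 3 per group). That call was lost in 5 of 15 alternative analyses, among them offsets for GC content and transcript length, where the log2 fold change was -0.05 (edgeR adjusted p = 0.604; range over the 15 alternatives 0.000293 to 0.604). Upper quartile factors (log2 fold change -0.22) and the fits without VC 1 (-0.28) or VHL-KO 2 (-0.30) also lost the call. Reads over a whole gene do not show whether the edited bases are intact, and 23.5% of the exonic bases of VHL lie opposite another annotated gene. A list of 7 HIF target genes was also read. It was named after its values were seen, so it describes the samples and does not test the label. Of the 7, 6 were higher and 1, the prolyl hydroxylase gene EGLN3, was lower in VHL-KO cells, beside 28.5% higher and 31.2% lower of all tested genes (edgeR). CA9, the carbonic anhydrase used as a marker of HIF activity, was read 0, 0 and 2 times in VC 1, 2 and 3, whereas VHL-KO 1, 2 and 3 gave 288, 247 and 233 reads. It is 1 of the 6 and reached the 10 reads needed for testing only in VHL-KO samples, so its call is a description; NDRG1, VEGFA, SLC2A1, ADM and ANGPTL4, the other 5, reached them in both groups. Among 6 markers of renal and epithelial cells, 5 were detected and PAX2 had no count in any sample, while the keratin KRT8 was the most abundant. Of 9 markers of leukocytes, endothelium and fibroblasts, CD3E, LUM and COL3A1 were at 0 in every sample. The summed level of these 9 was between 7.74 and 10.9 CPM in VC and between 2.64 and 3.38 CPM in VHL-KO samples, with PDGFRB the most abundant. Their part in the results was not tested.

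VHL-KO cells held more TGFB1 and TGFBI mRNA and less TGFB2 mRNA than VC cells, while the type 1 and type 2 receptors, SMAD3 and SMAD7 did not pass the threshold. With a threshold of 0.05 on the adjusted p of edgeR's quasi-likelihood F test, 2 of the 10 genes were higher in VHL-KO cells (TGFB1 and TGFBI) and 2 were lower (TGFB2 and SMAD2, the latter turning to higher with offsets for GC content and length). Across all tested genes 59.7% passed in either direction, 28.5% higher and 31.2% lower. VC and VHL-KO values were fully separate for 5 of the 10 genes, against 64.7% of all tested genes. The median log2 fold change of the 10 genes was -0.03, and that of all tested genes was -0.01. Neither count for the 10 genes was above the background of this comparison. With offsets for GC content and transcript length, 6 of the 10 genes were higher and 2 lower, against 28.4% higher and 31.9% lower of all tested genes under the same offsets. In RNA from whole cultures, fewer cells that express a gene and less of its RNA per cell cannot be told apart.

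**Figure D1:**
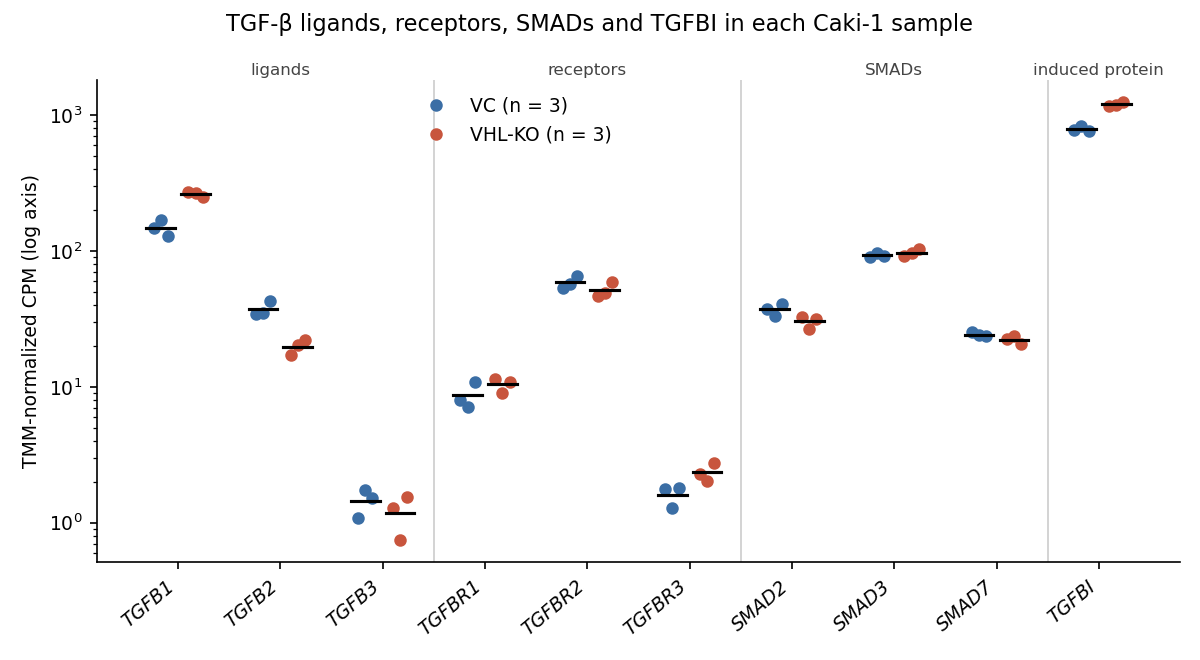
TMM-normalized CPM (log axis) of the 10 genes in the 3 VC samples (blue) and the 3 VHL-KO samples (red), with the mean of each group as a black bar. TGFB1, TGFB2, TGFBR3, SMAD2 and TGFBI are the 5 genes whose groups do not overlap.

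The ligands moved in opposite directions. TGFB1, the most widely expressed isoform, was expressed at 148, 168 and 129 CPM in VC 1, 2 and 3 and at 271, 265 and 249 CPM in VHL-KO 1, 2 and 3. Every VHL-KO sample lay above every VC sample, and the VHL-KO samples were closer to each other than the VC samples. The group means were 148 ± 19.3 and 262 ± 11.1 CPM (SD, n = 3 each), a 1.76-fold rise (log2 fold change 0.82, SE 0.10, edgeR adjusted p = 9.3e-08). TGFB2, an isoform with separate roles in development, was expressed at 34.3, 35.1 and 42.5 CPM in the VC samples and at 17.2, 20.2 and 22.0 CPM in the VHL-KO samples. The highest VHL-KO sample remained well below the lowest VC sample. TGFB2 fell 1.89-fold from 37.3 ± 4.54 to 19.8 ± 2.43 CPM (SD, n = 3 each; log2 fold change -0.92, SE 0.12, edgeR adjusted p = 7.9e-07).

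TGFB3, the least abundant of the ligands, was read 37, 52 and 58 times in VC 1, 2 and 3 and 34, 16 and 33 times in VHL-KO 1, 2 and 3. The read counts of the groups did not overlap, but the VHL-KO libraries were mostly shallower, and scaled to CPM the values were 1.08, 1.75 and 1.53 against 1.27, 0.74 and 1.55 and overlapped. The log2 fold change of -0.29 had a 95% interval from -0.96 to 0.39 (edgeR adjusted p = 0.465), so no difference was detectable at this depth. Its size moved with single samples, to -0.04 without VHL-KO 2, -0.12 without VC 2 and -0.50 without VHL-KO 3. TGFB3 was called in none of the 15 alternative analyses. The changes of TGFB1 and TGFB2 kept their direction and their call in all 15. Their size was smaller with offsets for GC content and transcript length, with or without the replicate number as a block. With the offsets alone, the log2 fold change of TGFB1 was 0.43 (edgeR adjusted p = 8.6e-07; range over the 15 alternatives 2.1e-16 to 5.7e-06) and that of TGFB2 was -0.49 (edgeR adjusted p = 6.1e-05, the largest of its range, which starts at 2.1e-13).

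GC content is given beside these genes because fold changes of all tested genes moved with it. The median log2 fold change was -0.47 for genes with a transcript GC content under 40%, -0.31 from 40 to 45% and 0.50 at 60% or more. The TGFB1 transcript has a GC content of 63.6%, that of TGFB2 42.2% and that of TGFBI 53.1%. What part GC content has in the changes of these genes was not tested. Shared bases also limit the ligand counts. Of the exonic bases of TGFB2, 22.7% lie in the annotated gene TGFB2-OT1 on the same strand and 11.6% opposite TGFB2-AS1. TGFB2-OT1 had no count in any sample and TGFB2-AS1 had between 11 and 22 counts per sample, against at least 435 for TGFB2. The end of TGFB1 lies opposite HNRNPUL1 over 6.59% of its exonic bases, and HNRNPUL1 was read 12368, 11635 and 12983 times in VC 1, 2 and 3 and 5309, 4283 and 4475 times in VHL-KO 1, 2 and 3. The strand setting of the counting is not given in the sources used here, so reads from such pairs cannot be told apart.

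Within the ligand pool, TGFB1 gained share. Dividing each gene's counts by the length of its main transcript, TGFB1 made up 89.6, 90.3 and 85.8% of ligand mRNA in the VC samples and 96.7, 96.3 and 95.5% in the VHL-KO samples. TGFB2 made up 9.83, 8.95 and 13.4% in VC 1, 2 and 3 and 2.91, 3.47 and 3.99% in VHL-KO 1, 2 and 3. TGFB1 was thus the main ligand in all 6 libraries, and the pool shifted toward it. These shares are unaffected by the scaling of the libraries. The log2 share of TGFB1 was 0.12 higher in VHL-KO cells (two-sided exact permutation test over samples, p = 0.1, the smallest p that 3 against 3 samples allow). With the GC and length offsets the difference was 0.06, and with counts not divided by length it was 0.23.

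**Figure D2:**
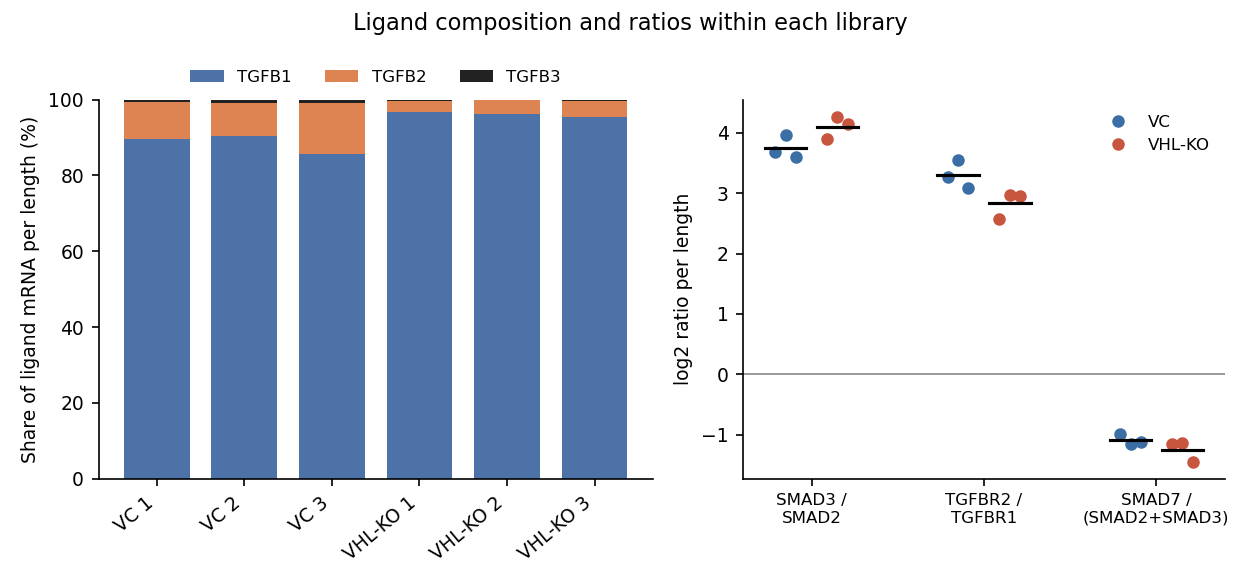
Left, the share (%) of TGFB1, TGFB2 and TGFB3 in ligand mRNA per transcript length in each sample. Right, log2 ratios per transcript length of SMAD3 to SMAD2, TGFBR2 to TGFBR1, and SMAD7 to the sum of SMAD2 and SMAD3, with 1 point per sample and the group mean as a black bar. TGFB2 takes 8.95 to 13.4% of the pool in VC and 2.91 to 3.99% in VHL-KO samples; with GC and length offsets the mean SMAD3 to SMAD2 ratio is lower in VHL-KO, by -0.09 on the log2 scale.

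The promoters of the 3 genes that kept their call in all alternatives are shown because TGFB1 and TGFBI rose while TGFB2 fell in cells where HIF target genes such as VEGFA and NDRG1 were higher. In GENCODE on GRCh38, TGFB1 spans chr19:41301587-41353922, TGFB2 spans chr1:218345336-218444619 and TGFBI spans chr5:136028988-136063818. The sequences are from RefSeq (build GRCh38.p14), cover the 250 bases before the start site of each gene, and read 5′ to 3′ on the strand of the gene. Capitals mark ACGTG or GCGTG on either strand, the core letters of the HIF response element.
TGFB1, chr19:41353923-41354172, minus strand: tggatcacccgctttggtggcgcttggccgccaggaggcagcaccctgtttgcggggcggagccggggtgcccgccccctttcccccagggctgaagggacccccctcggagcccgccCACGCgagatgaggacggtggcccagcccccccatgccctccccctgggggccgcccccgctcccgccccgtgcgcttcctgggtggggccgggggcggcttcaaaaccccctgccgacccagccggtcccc
TGFB2, chr1:218345086-218345335, plus strand: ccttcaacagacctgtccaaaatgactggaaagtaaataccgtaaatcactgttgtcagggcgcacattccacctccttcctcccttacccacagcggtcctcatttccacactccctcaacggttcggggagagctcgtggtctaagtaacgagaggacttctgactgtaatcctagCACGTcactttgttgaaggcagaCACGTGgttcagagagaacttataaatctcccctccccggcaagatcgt
TGFBI, chr5:136028738-136028987, plus strand: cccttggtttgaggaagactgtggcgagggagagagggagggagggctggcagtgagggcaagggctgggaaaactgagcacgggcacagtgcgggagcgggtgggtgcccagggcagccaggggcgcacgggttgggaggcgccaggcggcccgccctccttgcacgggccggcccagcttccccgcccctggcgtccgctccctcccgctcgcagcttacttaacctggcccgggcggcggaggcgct
The TGFB1 window holds these letters at 1 position, as the reverse complement of GCGTG. The TGFB2 window holds ACGTG at 3 positions, where the palindrome CACGTG counts once on each strand, and the TGFBI window holds neither. Of the 35116 RefSeq windows of the same length, 43.2% hold ACGTG or GCGTG and 18.5% hold ACGTG. The 10 genes have 26 windows in this set, up to 8 for 1 gene and partly overlapping, and 17 of the 26 hold ACGTG or GCGTG. Matches were found before the ligand gene that rose and before the one that fell, and a role of HIF in these changes was not tested. The SMAD palindrome GTCTAGAC is in none of these 26 windows and in 0.182% of all windows. The shorter SMAD core CAGAC, searched on both strands, is in 10 of the 26 windows, at 2 positions for TGFB2 and at none for TGFB1 and TGFBI, and in 38.0% of all windows. A match describes letters and is not a bound site.

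TGFBI had the highest level of the 10 genes and rose in VHL-KO cells. The protein is secreted, binds collagen and integrins, and takes part in cell adhesion. It was expressed at 782, 827 and 762 CPM in VC 1, 2 and 3 and at 1163, 1196 and 1249 CPM in VHL-KO 1, 2 and 3. The VHL-KO samples all lay above the VC samples, and the spread within each group was small against the gap. The rise was 1.52-fold, from 790 ± 33.4 to 1203 ± 43.4 CPM (SD, n = 3 each; log2 fold change 0.61, SE 0.08, edgeR adjusted p = 8.4e-07). TGFBI kept its call in 15 of 15 alternatives, with log2 fold changes from 0.41 to 0.72.

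None of the receptors passed the threshold. TGFBR2, the type 2 receptor that binds ligand first, was expressed at 53.7, 57.6 and 65.0 CPM in the VC samples and at 46.9, 48.9 and 59.0 CPM in the VHL-KO samples. VHL-KO 3 lay within the VC range, and the log2 fold change was -0.19 (95% interval -0.41 to 0.04, edgeR adjusted p = 0.141). TGFBR1, the kinase that phosphorylates SMAD2 and SMAD3, was expressed at 8.0, 7.10 and 10.9 CPM in VC and at 11.4, 8.94 and 10.9 CPM in VHL-KO samples. VC 3 lay among the VHL-KO samples, and the log2 fold change was 0.26 (95% interval -0.09 to 0.61, edgeR adjusted p = 0.193). TGFBR3, or betaglycan, a co-receptor that presents ligand to TGFBR2, was read 38 to 68 times per VC library and 44 to 61 times per VHL-KO library. Scaled to CPM its groups did not overlap, and the log2 fold change was 0.55 (95% interval 0.02 to 1.07, edgeR adjusted p = 0.0700).

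These receptor values moved with the analysis. With GC and length offsets TGFBR1 was called higher (log2 fold change 0.81, edgeR adjusted p = 1.3e-05; range over the 15 alternatives 2.3e-06 to 0.776), and so it was without VC 3 (0.48, edgeR adjusted p = 0.0115). With the offsets TGFBR3 was also called higher (0.93, edgeR adjusted p = 0.00188; range 0.00188 to 0.249), as it was with upper quartile factors (0.66) and with the filter of at least 10 reads in every sample (0.58). TGFBR2 was called lower with library size alone (-0.38, edgeR adjusted p = 0.00645; range 0.00645 to 0.576) and without VHL-KO 3 (-0.29), and stood at 0.06 with the offsets. The ratio of TGFBR2 to TGFBR1 per transcript length was 9.62, 11.6 and 8.52 in VC 1, 2 and 3 and 5.91, 7.84 and 7.74 in VHL-KO 1, 2 and 3. Each VHL-KO sample lay below each VC sample. The mean log2 ratio differed by -0.47 (two-sided exact permutation test, p = 0.1, the smallest possible), and by -0.74 with the offsets.

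SMAD3 and SMAD7 did not pass the threshold. SMAD3 was expressed at 89.6, 96.5 and 91.9 CPM in VC and at 91.3, 96.0 and 103 CPM in VHL-KO samples. The groups were interleaved apart from VHL-KO 3, which was the highest, and the 95% interval of the log2 fold change ran from -0.13 to 0.25 around 0.06 (edgeR adjusted p = 0.580). SMAD7 was expressed at 25.1, 24.0 and 23.6 CPM in VC and at 22.5, 23.7 and 20.7 CPM in VHL-KO samples. VHL-KO 2 lay within the VC range, and the log2 fold change was -0.12 (95% interval -0.36 to 0.12, edgeR adjusted p = 0.388). With the GC and length offsets SMAD3 was called higher at 0.16 and SMAD7 lower at -0.23, and with library size alone SMAD7 was called lower at -0.31 while SMAD3 stood at -0.13.

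SMAD2 was the one SMAD of the 10 genes with a call, and this call did not hold across analyses. Its values were 37.3, 33.3 and 40.8 CPM in VC and 32.8, 26.8 and 31.3 CPM in VHL-KO samples. The groups were separate, but VC 2 and VHL-KO 1 lay close together. The log2 fold change was -0.29 (SE 0.12, edgeR adjusted p = 0.0335). The call was lost in 8 of 15 alternatives, including DESeq2's Wald test (-0.27, DESeq2 adjusted p = 0.0522) and the fits without VC 1 (-0.28), VC 3 (-0.20), VHL-KO 2 (-0.21) or VHL-KO 3 (-0.31). With the GC and length offsets SMAD2 was called higher, at 0.26 (edgeR adjusted p = 0.00529; range over the 15 alternatives 0.00145 to 0.198). The SMAD2 transcript used has a GC content of 40.3% and is 34626 bases long, most of it past the coding part, so its level per length is uncertain.

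The SMAD3 to SMAD2 ratio per transcript length was 12.9, 15.5 and 12.1 in VC 1, 2 and 3 and 14.9, 19.2 and 17.6 in VHL-KO 1, 2 and 3. VC 2 lay above VHL-KO 1, and the mean log2 ratio was 0.35 higher in VHL-KO cells (two-sided exact permutation test, p = 0.2). With the offsets this difference turned to -0.09. The ratio of SMAD7 to the sum of SMAD2 and SMAD3 ranged from 0.453 to 0.503 over VC and from 0.368 to 0.453 over VHL-KO samples, a log2 difference of -0.16 (two-sided exact permutation test, p = 0.2). It was -0.40 with the offsets, -0.09 with counts not divided by length and -0.06 without VHL-KO 3.

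**Figure D3:**
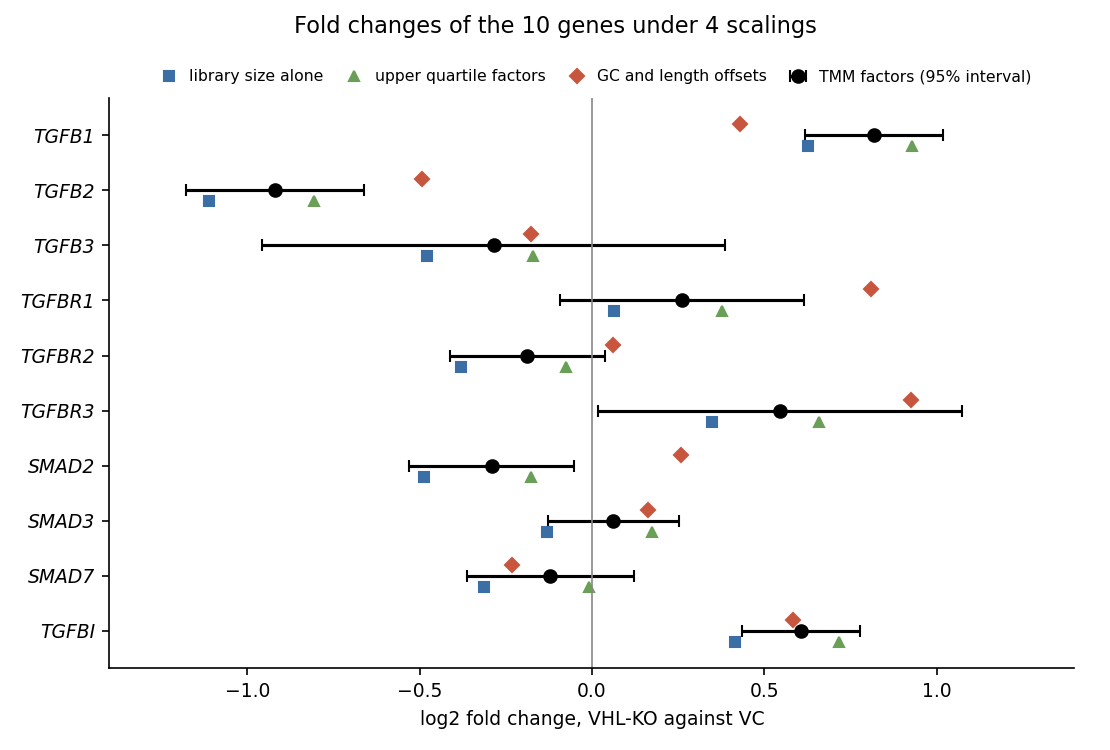
Log2 fold change of VHL-KO against VC for the 10 genes with TMM factors (black, bars are 95% intervals), library size alone (squares), upper quartile factors (triangles) and offsets for GC content and transcript length (diamonds). TGFB1 and TGFBI lie above 0 and TGFB2 lies below 0 under all 4 scalings, while SMAD2 and TGFBR2 change sign with the offsets and SMAD3 changes sign with library size alone.

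Set beside each other per transcript length, the genes spanned a wide range of levels. TGFBI led with 291 ± 12.3 CPM per kilobase in VC, followed by TGFB1 with 53.4 ± 6.9 (SD, n = 3). SMAD3 (14.3 ± 0.55) and TGFBR2 (13 ± 1.26) came next and overlapped, as did SMAD7 (7.26 ± 0.24) and TGFB2 (6.36 ± 0.77), and TGFBR1 (1.34 ± 0.31) and SMAD2 (1.07 ± 0.11). TGFB3 (0.424 ± 0.099) and TGFBR3 (0.254 ± 0.045) were lowest. The levels depend on the length chosen: divided by all annotated exonic bases of a gene in place of its canonical transcript, the VC means were 102 for TGFBI, 45.5 for TGFB1, 9.26 for SMAD3 and 0.278 for TGFB3. By canonical transcript, TGFBI was above 98.7% of tested genes in VC cells and TGFBR3 above 15.3%. In VHL-KO cells the 3 pairs that overlapped in VC no longer overlapped, with means of 15 for SMAD3 and 11.4 for TGFBR2, 6.67 for SMAD7 and 3.37 for TGFB2, and 1.60 for TGFBR1 and 0.876 for SMAD2, while TGFB3 (0.346 ± 0.12) overlapped TGFBR3 (0.373 ± 0.058).

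Around the 10 genes, a wider list of 57 genes of TGF-β family pathways was followed. Of these, 47 were tested, and 13 were higher, 20 lower and 14 not past the threshold in VHL-KO cells (edgeR), beside 28.5% higher and 31.2% lower of all tested genes. Their median log2 fold change was -0.36, against -0.01 for all tested genes. The balance moved with the scaling, to 10 higher and 29 lower with library size alone, where 21.6% of all tested genes were higher and 38.7% lower, and to 16 higher and 18 lower with the GC and length offsets, where 28.4% were higher and 31.9% lower. Counts by role are set against these shares of all tested genes, and no difference between roles was tested.

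Genes of ligand latency and activation changed in both directions. All 11 were tested, 3 were higher and 5 lower (28.5% and 31.2% of all tested genes). Their median log2 fold change was -0.46, against -0.01 for all tested genes. NRROS, chosen after its values were seen, is among the 11 and did not pass the threshold. It reached the reads needed for testing in VC samples only, so it enters the count and the median through the group where it is higher. THBS1, the matrix glycoprotein thrombospondin 1 that can activate latent TGF-β, was expressed at 564, 645 and 725 CPM in VC and at 79.7, 83.1 and 98.3 CPM in VHL-KO samples. All VHL-KO samples lay far below the VC samples, a 7.41-fold fall (log2 fold change -2.89, SE 0.11, edgeR adjusted p = 1.1e-16). LTBP3, which tethers the latent complex to the matrix, rose 3.68-fold from 122 ± 14.8 to 447 ± 6.02 CPM (SD, n = 3 each; edgeR adjusted p = 4.2e-14). LTBP1, of the same family, fell from 1.90 ± 0.10 to 0.539 ± 0.184 CPM (SD, n = 3 each; log2 fold change -1.82, edgeR adjusted p = 5.4e-05). The binding proteins of latent TGF-β thus went both ways. THBS1 and LTBP3 kept their calls in all 15 alternatives, and LTBP1 in the 14 that tested it.

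Of 10 other receptors and co-receptors, 9 were tested, 2 were higher and 4 lower, where 59.7% of all tested genes passed in either direction. The type 1 receptors BMPR1A and ACVR1, which serve bone morphogenetic proteins, both fell. BMPR1A went from 15.5 ± 3.82 to 7.80 ± 0.36 CPM (SD, n = 3 each; log2 fold change -0.99, edgeR adjusted p = 1.5e-05), and with the offsets its log2 fold change was -0.45. ACVR1 went from 26.6 ± 1.58 to 14.5 ± 1.97 CPM (SD, n = 3 each; log2 fold change -0.87, edgeR adjusted p = 2.8e-06). BAMBI, a decoy receptor without a kinase domain, had a level of 1.02 CPM in VC and 0.437 CPM in VHL-KO cells (log2 fold change -1.25, SE 0.50, edgeR adjusted p = 0.0338). VHL-KO 2, at 0.93 CPM, stood apart from VHL-KO 1 and 3, at 0.15 and 0.23 CPM. The call was lost in 6 of 14 alternatives, and the log2 fold change was -0.80 without VHL-KO 1 and -2.41 without VHL-KO 2. DESeq2's Wald test (-1.22) and the fits without VC 1 (-1.28), VC 2 (-1.24) or VC 3 (-1.18) lost the call with a fold change about as large.

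Of the 5 other SMADs, 4 were lower and none higher, against 31.2% and 28.5% of all tested genes. SMAD5 and SMAD1, which carry signals of bone morphogenetic proteins, had log2 fold changes of -1.12 (edgeR adjusted p = 7.9e-07) and -0.68 (edgeR adjusted p = 0.00120). SMAD4, the partner shared by both branches, fell from 15.5 ± 1.83 to 11.1 ± 0.91 CPM (SD, n = 3 each; log2 fold change -0.48, edgeR adjusted p = 0.00577). SMAD6, an inhibitory SMAD like SMAD7, had a log2 fold change of -0.33 (edgeR adjusted p = 0.0222) and lost its call in 5 of 15 alternatives, in which its log2 fold change was between -0.33 and -0.22. With the GC and length offsets SMAD4 stood at -0.03, SMAD1 at -0.32 and not past the threshold, SMAD5 at -0.56 and still called, and SMAD6 at -0.49 and still called.

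Of 12 tested SMAD regulators 1 was higher and 6 were lower, beside 28.5% and 31.2% of all tested genes. STRAP, an adaptor that acts with SMAD7 at the receptor, fell from 200 ± 22.9 to 88.7 ± 3.78 CPM (SD, n = 3 each; log2 fold change -1.18, edgeR adjusted p = 2.1e-10). USP15, a deubiquitinase of the receptor complex, had a log2 fold change of -1.04 (edgeR adjusted p = 4.9e-05), and -0.47 with the offsets. NEDD4L, a ubiquitin ligase for activated SMAD2 and SMAD3, had one of -0.83 (edgeR adjusted p = 9.7e-08). SKIL and PMEPA1, feedback inhibitors induced by TGF-β, had log2 fold changes of -0.06 and -0.08 and did not pass the threshold (edgeR adjusted p = 0.754 and 0.449). SKIL was called higher with the offsets (0.50), and PMEPA1 lower with library size alone (-0.28).

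Of 18 other ligands and antagonists of the family, 10 were tested, 7 were higher and 1 lower, beside 28.5% and 31.2% of all tested genes. This count is not a measure of the role as a whole, since 8 genes did not reach 10 reads in a sample. CHRD and INHA, chosen after their values were seen, are 2 of the 7 and reached 10 reads in VHL-KO samples only, so they could be tested only through the group where they are high. BMP2 and FST, also chosen afterwards and not past the threshold, reached 10 reads in VC samples only. NOG, which encodes the secreted antagonist noggin, rose 3.17-fold from 9.43 ± 1.05 to 29.9 ± 0.85 CPM (SD, n = 3 each; edgeR adjusted p = 7.1e-11). BMP4, one of the ligands that noggin binds, went from 0.530 ± 0.140 to 1.37 ± 0.24 CPM (SD, n = 3 each; log2 fold change 1.36, edgeR adjusted p = 0.00341). GDF15, a stress-induced distant member of the family, rose 2.07-fold to 410 ± 12.9 CPM (SD, n = 3; edgeR adjusted p = 3.5e-10), and its log2 fold change of 1.05 became 0.35 with the offsets.

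**Figure D4:**
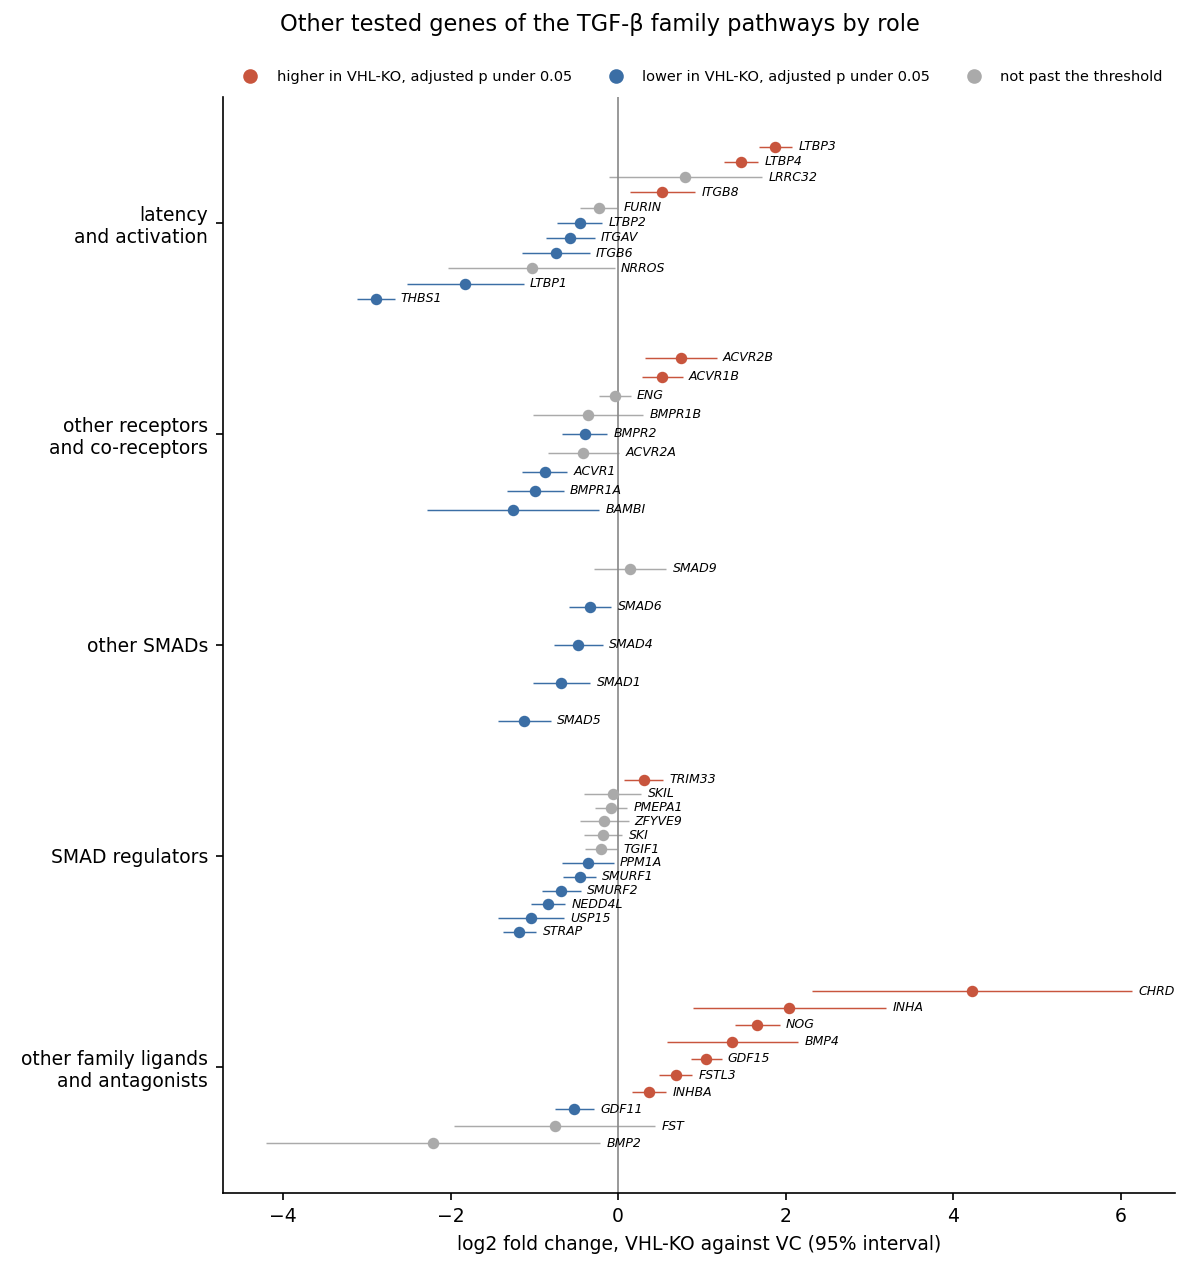
Log2 fold change of VHL-KO against VC with 95% intervals for the 47 tested genes of the wider pathway list, grouped by role; red points are higher and blue points lower in VHL-KO with an edgeR adjusted p under 0.05, and gray points did not pass. THBS1 lies at -2.89 and LTBP3 at 1.88 within the same role.

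Genes known as TGF-β targets did not move as one. The list sets no expected direction for each gene, so its counts do not measure signaling. Of 31 on the list, 28 were tested, 8 were higher, 15 lower and 5 not past the threshold, beside 28.5% higher and 31.2% lower of all tested genes. Their median log2 fold change was -0.36, against -0.01 for all tested genes. MMP2, chosen after its values were seen, is 1 of the 15 lower genes and reached 10 reads in VC samples only. CCN2, connective tissue growth factor, was expressed at 53.5, 50.5 and 54.1 CPM in VC 1, 2 and 3 and at 35.6, 41.5 and 45.6 CPM in VHL-KO 1, 2 and 3. The VHL-KO samples were all lower, with means of 52.7 ± 1.91 and 40.9 ± 5.06 CPM (SD, n = 3 each; log2 fold change -0.37, edgeR adjusted p = 0.00492), a call that was lost without VHL-KO 1 (-0.27). CCN2 was lower in cells where TGFB1 was higher, and a link between these changes was not tested. With library size alone the log2 fold change of CCN2 was -0.56.

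Of the 6 targets with the largest changes among those with a mean of at least 1 CPM in a group, 3 rose. FN1, which encodes the matrix protein fibronectin, was expressed at 904, 999 and 981 CPM in VC and at 2373, 2479 and 2904 CPM in VHL-KO samples. Its groups were far apart, with a 2.69-fold rise (log2 fold change 1.43, SE 0.09, edgeR adjusted p = 2.2e-12). ACTA2, smooth muscle actin, had a log2 fold change of 1.59 (edgeR adjusted p = 8.1e-12), although 36% of its exonic bases lie opposite other genes. BHLHE40, a transcription factor that hypoxia also induces, had one of 1.53 (edgeR adjusted p = 1.3e-12).

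The other 3 fell. COL4A1, a chain of basement membrane collagen, went from 268 ± 26.0 to 97.4 ± 8.59 CPM (SD, n = 3 each; log2 fold change -1.46, edgeR adjusted p = 5.2e-12). IL11, a cytokine of the IL-6 family, went from 4.87 ± 0.22 to 1.05 ± 0.39 CPM (SD, n = 3 each; log2 fold change -2.24, edgeR adjusted p = 4.7e-08). SNAI2, the transcription factor Slug, which represses E-cadherin, went from 6.70 ± 0.76 to 2.5 ± 0.50 CPM (SD, n = 3 each; log2 fold change -1.41, edgeR adjusted p = 1.8e-06). These 6 targets kept their calls in all 15 alternatives. Matrix genes were thus found on both sides, with FN1 and TGFBI higher and COL4A1 and THBS1 lower in VHL-KO cells.

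**Figure D5:**
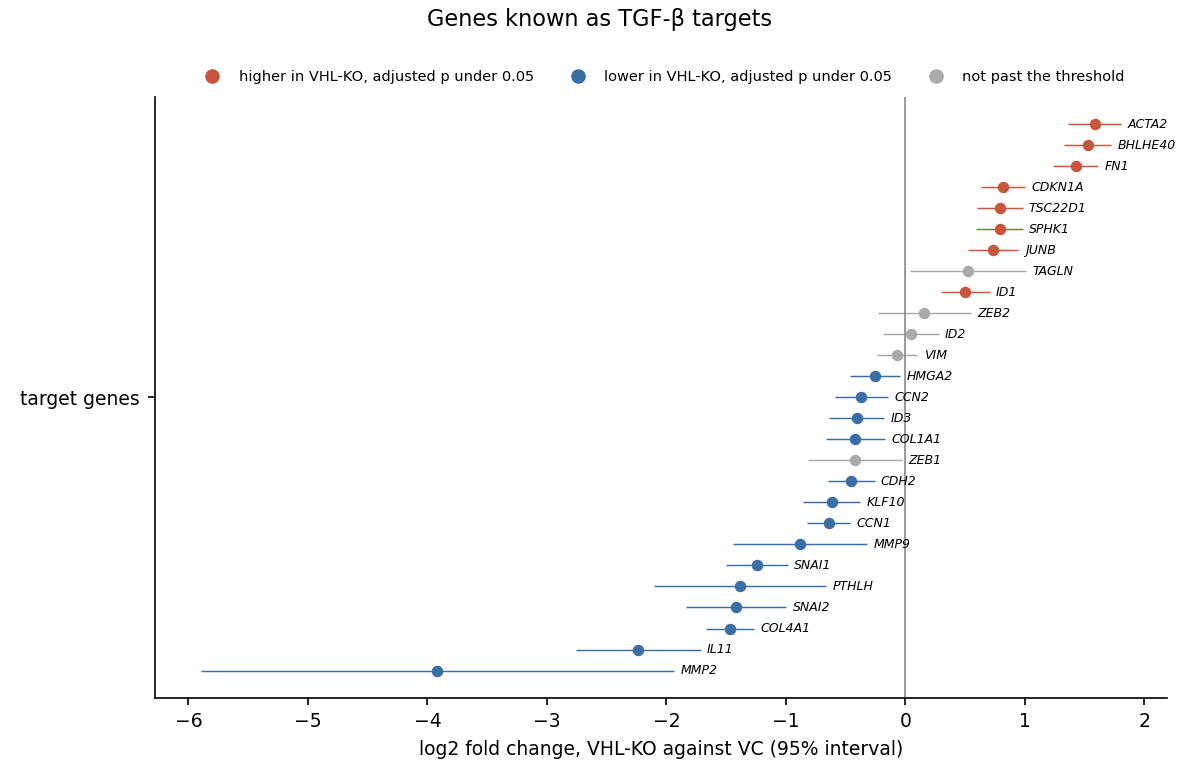
Log2 fold change of VHL-KO against VC with 95% intervals for 27 of the 28 tested genes of the TGF-β target list, in order of size; red points are higher and blue points lower in VHL-KO with an edgeR adjusted p under 0.05, and gray points did not pass. CCN2 lies at -0.37, between FN1 at 1.43 and IL11 at -2.24.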

How the data were processed

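RNA of 3 VC and 3 VHL-KO samples was sequenced. The values are counts of reads per gene, deposited by the authors without normalization. Per the labels and the study's methods, reads were trimmed with Trim Galore and Cutadapt, those of at least 20 nt were placed on GRCh38.p13 by STAR, SAMtools kept the ones with a single location, and HTSeq counted them. Tool versions, annotation, strand setting and counting mode are not given in the sources used here.

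Genes that reached 10 reads in any sample were compared in R 4.3.3 with edgeR 4.0.16 (TMM factors, quasi-likelihood F test, two-sided, Benjamini-Hochberg adjustment over all 17401 tested genes, threshold 0.05). SE is the log2 fold change over the square root of F. The 95% intervals use the total degrees of freedom of that F test, which include the prior that edgeR pools over genes. Ratios within a library were compared by exact permutation. Gene positions are spans of the whole gene in GENCODE release 44, and overlaps are shares of all its annotated exonic bases. Transcript lengths and GC content are of the Ensembl canonical transcript in that release. Alternatives were DESeq2 1.42.0, other scaling factors and filters, each sample left out, the replicate number as a block, and offsets for GC content and length (natural splines with 5 degrees of freedom), which take away any biological difference that runs along GC content as well. Python 3.11.15 and matplotlib 3.10.9 drew the figures. No sample was a copy of another: chi-square over its degrees of freedom was 6.18 to 32.8 for pairs within a group. A count of 0 allows up to 3 counts, which is 0.0790 CPM in VC 3 and 0.141 CPM in VHL-KO 3, counting error only.

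The genes and lists were chosen with earlier results of these data known. Named were VHL, the 10 genes, SMAD4, SMAD6, SKIL, PMEPA1 and CCN2, and, among genes past the threshold with a mean of at least 1 CPM in a group, the 3 largest log2 fold changes of each pathway role and the 6 largest of the targets. The HIF target genes, NRROS, CHRD, INHA, BMP2, FST, MMP2 and the overlapping genes were named after their values were seen. One gene of the target list enters the counts but is not reported here by name.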

Additional observations from a re-analysis of the deposited data

How the results depend on the processing

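Of 150 refits of the 10 genes, 123 kept direction and side of the threshold, 8 lost and 14 gained a call, and 5 changed direction. TGFB1, TGFB2 and TGFBI kept theirs in 15 of 15. With GC and length offsets 6 of the 10 genes were higher, and TGFBR2 stood at 0.0617, SMAD2 at 0.260 and SKIL at 0.502. With the offsets and the replicate block together 6 were also higher, and these values were 0.0630, 0.259 and 0.499. The offsets gave log2 differences of 0.0598 for the TGFB1 share, -0.0937 for SMAD3 to SMAD2, -0.741 for TGFBR2 to TGFBR1 and -0.401 for the SMAD7 ratio; counts not divided by length gave 0.228 for the TGFB1 share. DESeq2, RLE factors, upper quartile factors and a minimum of 10 reads in every sample each gave 1 lower gene, and library size alone gave 4, against 2. Upper quartile factors put SKIL at 0.0517 and PMEPA1 at 0.0266, and library size alone put SMAD3 at -0.130. Leaving out each sample gave 1 to 2 lower genes, SKIL from -0.227 to 0.177 and PMEPA1 from -0.134 to 0.0231. The causes were not tested. Over all tested genes, TMM factors gave 47.7% higher calls among the calls and a median log2 fold change of -0.01, library size alone 35.8% and -0.20, and upper quartile factors 55% and 0.10; fold changes are relative to these medians. The replicate numbers did not pair the samples (correlations of deviations 0.20, -0.10 and 0.07 for numbers 1, 2 and 3), and not every sample correlated best with its own number. The replicate block alone gave 4847 higher and 5437 lower of all tested genes, against 4958 and 5436, and 2 higher and 2 lower of the 10 genes, as without it. Genes with few reads, such as TGFB3, TGFBR3, LTBP1 and BAMBI, have wide intervals at this depth.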
